A study of Mus musculus with 8 samples.

Results

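The genes described here are 41 genes of S phase and mitosis, 18 that act in DNA replication and 23 that act in mitosis, out of 53801 genes in a table of RNA sequencing read counts from mouse lumbar dorsal root ganglia. They were listed by symbol, and each had to reach 10 reads in at least 1 library, which all 41 did. Ccnb1 reached the fewest, with 26 reads in its highest library. In the mice, male C57BL/6J per the labels and with no genetic change named, the left spinal nerve L4 had been tied tightly. Ganglia L3 to L5 of 3 mice were pooled for each library, so an injured-side library also holds 2 ganglia of nerves that were left untied. Each of days 1, 3 and 7 gave 1 injured-side library and 1 library of the opposite (contralateral), unligated side from the same mice, and a left and a right library from a pool labelled no injury, whose own label gives no day. The protocol in the labels describes a sham operation, but none of the 8 libraries is labelled sham. The contralateral side shares the operation of its mouse. Whether the no injury pool had a sham operation or none is not given by its label.

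The libraries held 20488115 to 21652688 counted reads, and the limit set by a count of 0, which is 3 reads, equalled 0.139 to 0.146 CPM (counts scaled to a common library total). Ratios of libraries are given below with 95% intervals from the read counts, which hold counting error alone, as copies of 1 molecule made by PCR were not separated. No single day has a second library of either side, so a difference at 1 day has no replicate check, and the injured state is replicated by its 3 pools. Both libraries labelled no injury go against the labelled sex: the female-specific RNA Xist gave 4931 and 4129 reads, against 0 to 3 in the other 6 libraries, and the Y gene Kdm5d gave 0 reads, against 13.1 to 16.7 CPM in the other 6. The contralateral library of day 1 stands apart in blood cell precursor genes. Mpo, the myeloperoxidase of neutrophil precursors, had 24.1 CPM there and 0.391 to 1.83 CPM in the other 7 libraries. In whole ganglia, fewer cells of a type and less RNA per cell cannot be told apart.

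A dividing cell first copies its DNA and then separates the copies. Origins are licensed by Cdc6 and Cdt1, which load the Mcm helicase, and the E2F transcription factors switch on many replication genes at the entry into S phase. Mitosis is driven by Cdk1 with cyclins A and B, which are made late in the cycle and destroyed through Cdc20 and the anaphase-promoting complex. Adult sensory neurons do not divide, whereas satellite glia, Schwann cells, fibroblasts and macrophages of the ganglion can.

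The mitosis and the replication genes differ in their promoters, as RefSeq's mouse promoter windows show (build GRCm38.p6, 250 bases before to 50 bases after the first listed start, 34 of the 41 genes matched). The motifs CHR, E2F and CCAAT were searched on both strands, and a match is a description of the letters, not a site. The cell cycle genes homology region (CHR, searched as TTTGAA or TTCGAA) is known from promoters active in G2 and mitosis. It was present in 15 of 19 mitosis genes (78.9%) and 3 of 15 replication genes (20%), against 19.3% of 26742 genes in the promoter table. An E2F element (TTTCCCGC, TTTCGCGC, TTTGCCGC or TTTGGCGC) was present in 6 of 15 replication genes (40.0%), 1 of 19 mitosis genes (5.3%) and 2.3% of all genes. The CCAAT box, the element of NF-Y, was present in 89.5% of the mitosis genes, 66.7% of the replication genes and 37.9% of all genes. The 110 bases before the start are shown for 3 mitosis genes and 1 replication gene, to set both promoter types side by side. Capitals mark the CHR, E2F and CCAAT letters in either orientation (CHR reads TTCAAA and CCAAT reads ATTGG on the other strand), and where 2 matches overlap the capitals run together.
Top2a, chr11:99024190-99024299, minus strand: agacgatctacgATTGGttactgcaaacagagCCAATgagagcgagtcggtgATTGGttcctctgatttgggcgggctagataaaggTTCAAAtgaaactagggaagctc
Kif11, chr19:37376272-37376381, plus strand: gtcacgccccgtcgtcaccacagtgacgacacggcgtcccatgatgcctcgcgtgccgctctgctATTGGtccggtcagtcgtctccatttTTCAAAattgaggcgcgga
Mki67, chr7:135716380-135716489, minus strand: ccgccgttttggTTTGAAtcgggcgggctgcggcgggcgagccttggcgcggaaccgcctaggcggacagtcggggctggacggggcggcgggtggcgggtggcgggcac
Mcm6, chr1:128359706-128359815, minus strand: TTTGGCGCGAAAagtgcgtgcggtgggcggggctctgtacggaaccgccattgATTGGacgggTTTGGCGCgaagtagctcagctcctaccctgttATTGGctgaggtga
Top2a carries 1 CHR and 3 CCAAT boxes in this stretch, Kif11 1 of each, Mki67 1 CHR alone, and Mcm6 carries E2F elements and 2 CCAAT boxes with no CHR.

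The genes were read at low levels throughout. As FPKM, which is CPM per kilobase of exon, averaged over the 8 libraries, the highest were E2f1 at 9.45, Pcna at 7.55, Mcm4 at 5.28 and Mcm6 at 3.29, all replication genes, and the lowest were Ccnb1 at 0.105, Cenpf at 0.113 and Cdc6 at 0.145. Summed over the 23 mitosis genes, the level was 38.3 CPM on the injured and 116 CPM on the contralateral side at day 1, 130 and 46.6 CPM at day 3, 95.1 and 60.8 CPM at day 7, and 64.7 CPM left and 45.6 CPM right without injury. For the 18 replication genes the sums in the same order were 139 and 174, 194 and 137, 156 and 143, and 142 and 141 CPM. Both sums were highest on the injured side of day 3, next highest on the contralateral side of day 1, and the mitosis sum was lowest on the injured side of day 1. The highest of the 8 libraries was the injured side of day 3 for 25 genes and the contralateral side of day 1 for 12, against 21.7% and 11.7% of the 16675 genes tested below. The 12 were Mki67, Aurkb, Bub1, Bub1b, Cdc20, Cenpe, Kif11, Ube2c, Ccne2, Tk1, Cdc45 and Cdc6. Of the other 4 genes, Mcm4 and Gins2 were highest on the injured side of day 1, Cenpf on the injured side of day 7 and E2f1 on the contralateral side of day 7.

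**Figure D1:**
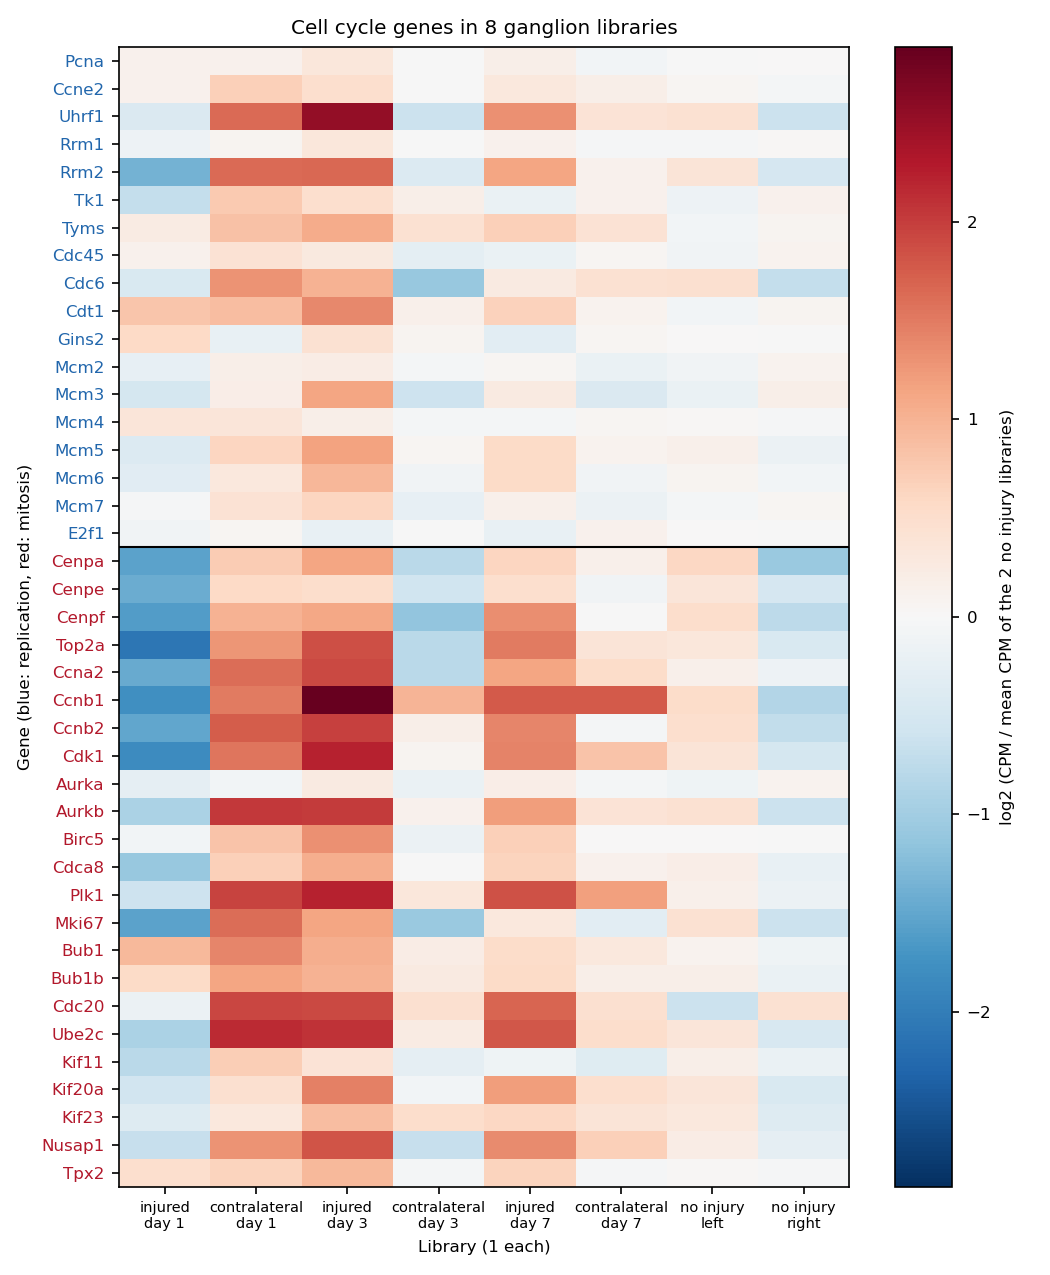
Level of each of the 41 genes (rows) in each of the 8 libraries (columns), as log2 of the CPM over the gene's mean CPM in the 2 no injury libraries, red above and blue below; 1 library a column, no error bars. Gene names are blue for replication and red for mitosis. The injured side of day 3 is the highest library for 25 genes and the injured side of day 1 the lowest for 23.

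At day 3 nearly every gene of the list was read more often on the injured side. The ratio of injured over contralateral CPM was above 1 for 40 of 41 genes, with an interval above 1 for 36, below 1 for E2f1, and holding 1 for Gins2, Kif23, Mcm2 and Tk1. Between the sides of day 3 the chi-square per gene was 48.7 over 15996 genes of all kinds, far above counting error alone. Intervals that exclude 1 are thus not particular to the cell cycle genes, and their share over all genes was not worked out. The median ratio was 3.49 over the mitosis genes and 1.51 over the replication genes. On the log2 scale with TMM scaling and a prior count of 2, used for genes with 50 or more reads in the higher library, 19 of 39 genes were 2-fold or more higher and 0 were 2-fold lower, against 6.16% and 1.22% of all genes with that many reads. The median log2 ratio of these 39 genes was 0.99, and that of all such genes was -0.01. It was above 0 for 38 of the 39, against 6561 of 13450 such genes.

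The cyclins and Cdk1 were among those with the widest differences at day 3. Ccna2, cyclin A2 (chromosome 3, 36564865 to 36572150, GRCm38), stood at 8.99 CPM on the injured and 1.40 CPM on the contralateral side of day 3, at 0.879 and 7.42 CPM at day 1, at 5.30 and 3.48 CPM at day 7, and at 2.65 and 2.17 CPM on the left and right without injury. Its day 3 ratio was 6.41 (interval 4.34 to 9.76), and only the contralateral library of day 1 came near the injured level of day 3. Cdk1, the kinase that cyclins A and B activate, had 6.38 and 1.45 CPM at day 3, 0.391 and 3.99 CPM at day 1, 3.69 and 2.45 CPM at day 7, and 1.78 and 0.970 CPM without injury. Its day 3 ratio was 4.40 (2.96 to 6.74). The B cyclins were 3.49-fold (Ccnb2) and 3.76-fold (Ccnb1) higher at day 3, with intervals of 2.10 to 6.06 and 1.59 to 10.2. Ccne2, cyclin E2 of the G1/S transition, differed less, with 6.01 against 4.30 CPM and a ratio of 1.40 (1.06 to 1.85).

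The general proliferation marker and the genes of chromosome structure followed the same order of libraries at day 3. Mki67, which encodes the Ki-67 antigen that coats mitotic chromosomes (chromosome 7, 135689784 to 135716361), had 15.8 CPM on the injured and 3.41 CPM on the contralateral side of day 3, 2.49 and 21.9 CPM at day 1, 8.95 and 5.84 CPM at day 7, and 9.69 and 4.71 CPM without injury. Top2a, the topoisomerase that untangles sister chromatids (chromosome 11, 98992943 to 99024189), had 13.6 and 2.20 CPM at day 3, 0.879 and 9.02 CPM at day 1, 10.6 and 4.85 CPM at day 7, and 4.72 and 2.77 CPM without injury. The day 3 ratios were 4.63 (3.58 to 6.05) for Mki67 and 6.18 (4.52 to 8.60) for Top2a. Both genes were at their lowest in the injured library of day 1. Among the 3 centromere genes the day 3 ratios ran from 2.10 for Cenpe, a kinesin of the kinetochore, to 4.75 for Cenpf.

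The kinases, checkpoint and spindle genes spread widely at day 3. Of the 5 mitotic kinases and passenger complex genes, Aurkb reached a ratio of 3.71, Birc5, the survivin subunit, 2.80, Cdca8, the borealin subunit, 2.07 and Aurka, the kinase of the spindle poles, 1.36 (1.03 to 1.79). Plk1, polo-like kinase 1, had 2.41 CPM on the injured and 0.655 CPM on the contralateral side of day 3, 0.342 and 2.02 CPM at day 1, 1.85 and 1.18 CPM at day 7, and 0.579 and 0.462 CPM without injury. The checkpoint and anaphase genes ran from 1.69 for Bub1b to 3.56 for Ube2c, an E2 enzyme of the anaphase-promoting complex. Among the 5 spindle genes, Nusap1, a microtubule-binding protein, was 5.51-fold higher (3.31 to 9.68), while Kif23, a kinesin of cytokinesis, was 1.30-fold higher with an interval of 0.949 to 1.79.

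The replication genes differed widely among themselves at day 3. Uhrf1, which guides maintenance DNA methylation at replication forks, had the highest ratio of all 41 genes, 8.83 (4.72 to 18.3), with 4.54 CPM on the injured and 0.514 CPM on the contralateral side of day 3, 0.586 and 2.44 CPM at day 1, 1.94 and 1.04 CPM at day 7, and 1.06 and 0.508 CPM without injury. Its contralateral level at day 3 rests on 11 reads. Rrm2, the cell cycle-regulated subunit of ribonucleotide reductase, had 6.34 and 1.54 CPM at day 3, 0.781 and 6.29 CPM at day 1, 4.45 and 2.21 CPM at day 7, and 2.60 and 1.43 CPM without injury. Its partner subunit Rrm1 differed far less at day 3, with 25.9 against 20.3 CPM and a ratio of 1.27 (1.12 to 1.45), and it ranged only from 18.5 to 25.9 CPM over the 8 libraries. The 6 Mcm subunits, which together form 1 helicase ring, also differed among themselves: the day 3 ratio was 3.33 for Mcm3, 2.17 for Mcm5, 2.08 for Mcm6, 1.82 for Mcm7, 1.21 for Mcm2 and 1.18 for Mcm4. Mcm6 (chromosome 1, 128331590 to 128359664) had 25.7 and 12.3 CPM at day 3, 10.4 and 16.2 CPM at day 1, 19.3 and 12.2 CPM at day 7, and 13.8 and 12.5 CPM without injury. Pcna, the sliding clamp of DNA polymerase, stayed between 16.2 and 21.4 CPM in all 8 libraries, with a day 3 ratio of 1.28 (1.11 to 1.47). Of the licensing and firing genes, Cdc6 was 4.21-fold higher from 25 against 6 reads, Cdt1 2.35-fold and Cdc45 1.46-fold, and Gins2 was 1.28-fold higher with an interval of 0.929 to 1.77.

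The remaining genes are given by their lowest and highest CPM over the 8 libraries. Ccnb1 ran from 0.0488 to 1.23, Ccnb2 from 0.293 to 3.26 and Ccne2 from 4.16 to 7.00 CPM. Among the centromere genes Cenpa ran from 0.634 to 4.07 and Cenpe from 0.976 to 3.90 CPM. Aurka ran from 4.20 to 5.96, Aurkb from 0.342 to 2.63, Birc5 from 2.38 to 6.67 and Cdca8 from 1.02 to 4.54 CPM. Aurka thus spanned a narrower range than the other 3 genes. Bub1 ran from 1.155 to 3.33, Bub1b from 2.77 to 7.00, Cdc20 from 0.530 to 3.10 and Ube2c from 0.439 to 3.71 CPM. Kif11 ran from 3.12 to 8.78, Kif20a from 1.51 to 6.01, Kif23 from 1.85 to 4.45, Nusap1 from 0.830 to 4.64 and Tpx2 from 4.96 to 9.88 CPM. Of these mitosis genes, Bub1, Bub1b and Kif23 were lowest in the right no injury library, Cdc20 in the left one, Birc5 and Tpx2 on the contralateral side of day 3, and the others on the injured side of day 1. Among the replication genes Mcm2 ran from 6.64 to 9.13, Mcm3 from 2.52 to 8.42, Mcm4 from 16.7 to 22.5, Mcm5 from 3.22 to 9.46 and Mcm7 from 5.61 to 10.2 CPM. Cdc6 ran from 0.281 to 1.46, Cdt1 from 1.35 to 3.74, Cdc45 from 3.13 to 5.03 and Gins2 from 2.56 to 4.69 CPM. Tyms, thymidylate synthase, ran from 1.54 to 3.40 and Tk1 from 1.66 to 4.46 CPM, and the day 3 ratio of Tyms was 1.55 (1.06 to 2.29).

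**Figure D2:**
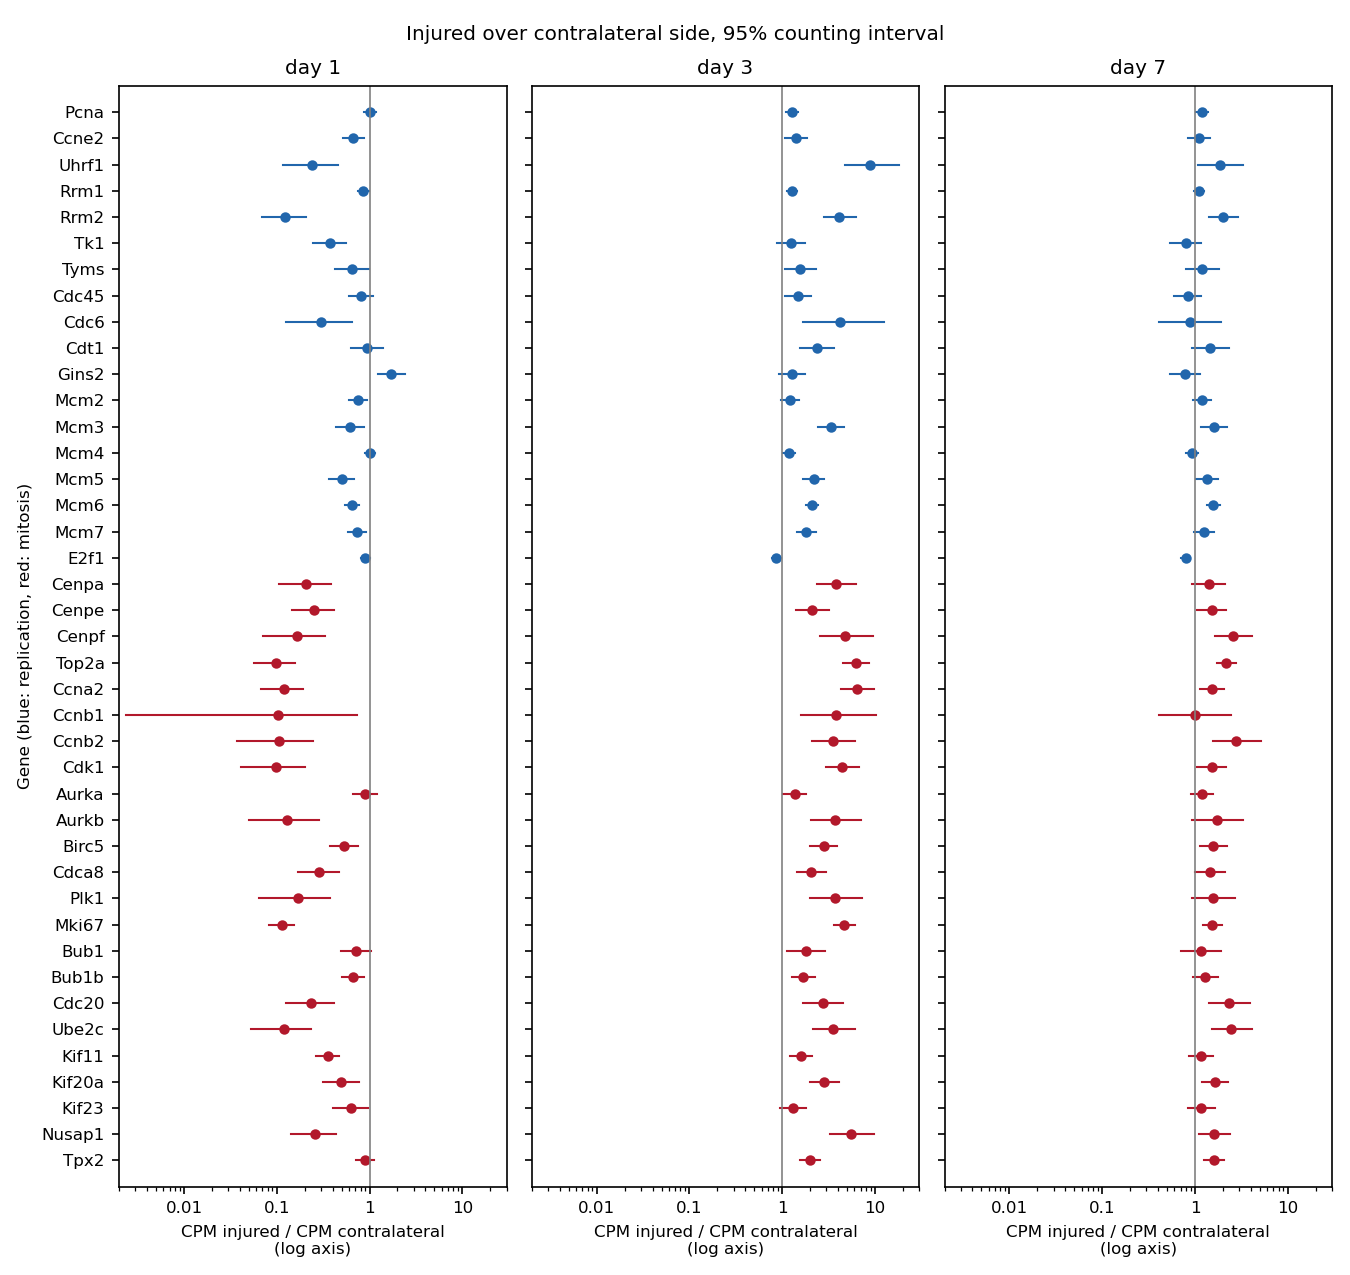
Ratio of injured over contralateral CPM (log axis) for each gene at days 1, 3 and 7, with the 95% interval from the 2 read counts as bars (counting error only, 1 library a side); blue are replication and red mitosis genes. Day 3 intervals lie above 1 for 36 genes and day 1 intervals below 1 for 32.

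At day 3 markers of macrophages and fibroblasts were also higher on the injured side. The summed level of 14 macrophage markers was 348 CPM on the injured and 97.5 CPM on the contralateral side of day 3, 330 and 140 CPM at day 7, 75.0 and 72.2 CPM at day 1, and 143 and 113 CPM without injury. Csf1r, the receptor for macrophage colony-stimulating factor, had 46.6 CPM on the injured side of day 3 and 14.4 CPM on the contralateral side. None of the 14 was at 0 in any library. The 8 fibroblast markers summed to 2050 against 692 CPM at day 3, and to 1470 and 1304 CPM on the left and right without injury. The 10 neutrophil precursor markers summed to 47.0 against 27.9 CPM and the 15 erythroid markers, globins included, to 1158 against 556 CPM at day 3. The 9 Schwann cell markers summed to 7402 against 4422 CPM and the 9 satellite glia markers to 3646 against 2855 CPM. Without injury, left and right, the Schwann cell sums were 5276 and 7308 CPM and the satellite glia sums 3240 and 3135 CPM. The Schwann cell sum was 7698 CPM on the injured and 7209 CPM on the contralateral side of day 7. Its day 3 injured level was thus near those of day 7 and of the right no injury library. The part of these cells in the level of the cell cycle genes was not tested.

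At day 1 the order of the sides was the other way round. The ratio was below 1 for 38 of 41 genes, with an interval below 1 for 32, above 1 for Gins2 alone, and holding 1 for 8. Between the sides of day 1 the chi-square per gene was 13.4 over 15912 genes of all kinds, above counting error alone. The share of all genes with an interval that excludes 1 was not worked out. The median ratio was 0.236 over the mitosis genes and 0.703 over the replication genes. Of the 38 genes with 50 or more reads, 17 were 2-fold or more lower and 0 were 2-fold higher, against 1.51% and 0.911% of all such genes, and their median log2 ratio was -0.89 against 0.02 for all such genes. Log2 ratios were above 0 for 3 of the 38, against 7063 of 13276 such genes. The 4 lowest were Top2a at -3.20, Mki67 at -3.06, Cdk1 at -3.05 and Ccna2 at -2.92, and in each the contralateral side was the higher one. The 4 highest were Gins2 at 0.79, Mcm4 at 0.05, Pcna at 0.04 and Cdt1 at -0.07, all replication genes. Ccnb1 had 1 read on the injured side and 10 on the contralateral side of day 1, a ratio of 0.104 with an interval of 0.00239 to 0.731. Gins2, a subunit of the GINS complex of the replication fork, shares 67.3% of its exon bases with Gse1 on the opposite strand, and without a stated strand setting its reads cannot be told apart from those of Gse1.

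Both libraries of day 1 departed from the other pools, in opposite directions. The injured library of day 1 lay below all 6 libraries of the other pools for 23 of 41 genes, 17 of the 23 mitosis genes and 6 of the 18 replication genes, against 18.7% of all genes tested. The contralateral library of day 1 lay above all 6 for 13 genes, 8 of mitosis and 5 of replication, against 14.9% of all genes. Set against the gene's median of those 6 libraries, the injured library of day 1 stood at a median of 0.398-fold for the mitosis and 0.885-fold for the replication genes, and the contralateral library at 1.84-fold and 1.33-fold. Over all genes tested these medians were 0.975-fold and 0.995-fold. The low day 1 ratio of the mitosis genes was thus made of a low injured level and a high contralateral level. Mki67 shows both: its 2.49 CPM on the injured side is below the lowest of the 6 other-pool libraries, 3.41 CPM, and its 21.9 CPM on the contralateral side is above the highest, 15.8 CPM. For Top2a the injured level of 0.879 CPM is below the lowest of the 6, 2.20 CPM, while the contralateral level of 9.02 CPM lies inside their range of 2.20 to 13.6 CPM.

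The blood cell precursor genes moved with the cell cycle genes at day 1. The 10 neutrophil precursor markers, among them Mpo, Elane and Camp, summed to 224 CPM in the contralateral library of day 1, 12.0 CPM in the injured library of day 1 and 27.9 to 107 CPM in the other 6, and all 10 were highest in the contralateral library of day 1. The left no injury library held the second highest sum. The 10 mature neutrophil markers summed to 439 CPM in the contralateral library of day 1, 36.5 CPM in the injured library of day 1 and 43.5 to 227 CPM elsewhere. The 15 erythroid markers summed to 1166 and 549 CPM on the contralateral and the injured side of day 1. Their sums elsewhere spanned nearly the same range, from 556 CPM (contralateral, day 3) to 1158 CPM (injured, day 3). Of the 15, 10 were highest in the contralateral library of day 1. Slc4a1, the anion exchanger of red cells, had 41.7 CPM there, 1.07 CPM on the injured side of day 1 and 1.93 to 10.6 CPM elsewhere. Macrophage markers did not move with them, at 75.0 CPM on the injured and 72.2 CPM on the contralateral side of day 1. The injured library of day 1 held the lowest sum of all 8 libraries for the mitosis genes, both neutrophil lists and the erythroid list. The part of these cells in the day 1 ratio was not tested.

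**Figure D3:**
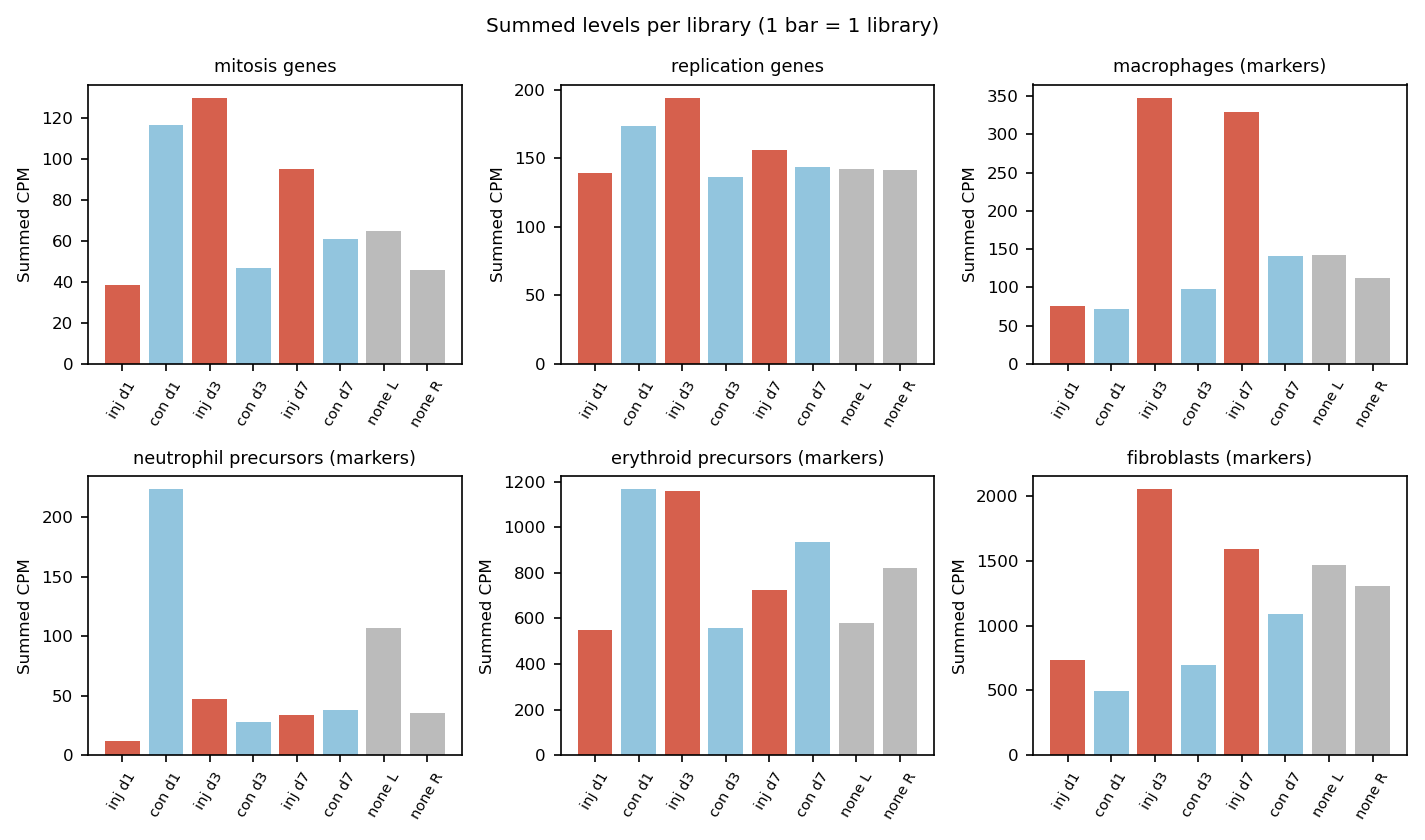
Summed CPM (vertical, linear from 0) of the mitosis genes, the replication genes and 4 marker lists in each of the 8 libraries (inj, injured; con, contralateral; d, day; none, no injury left and right), 1 bar a library, no error bars. The mitosis genes are at 116 CPM in the contralateral library of day 1, where the neutrophil precursor markers reach 224 CPM, and at 130 CPM on the injured side of day 3, where the macrophage markers reach 348 CPM.

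The 2 libraries with the highest cell cycle levels were also set against each other gene by gene. The ratio of the contralateral library of day 1 over the injured library of day 3 had a median of 0.849, with an interval below 1 for 14 genes, above 1 for 2 and holding 1 for 25. The 2 that were higher in the contralateral library of day 1 were Mki67 at 1.39 (1.20 to 1.6) and E2f1 at 1.21 (1.08 to 1.35). Ccnb1 at 0.382 (0.164 to 0.819), Kif20a, a kinesin of cytokinesis, at 0.508 (0.371 to 0.691), Mcm3 at 0.519 (0.399 to 0.670) and Uhrf1 at 0.538 (0.376 to 0.761) had the lowest ratios. Rrm2, Cdc20 and Aurkb were nearly level, with ratios of 0.993, 1.01 and 1.01 and intervals that held 1. The 2 libraries come from different pools and days, with 1 library each. Over 16176 genes of all kinds the chi-square per gene between them was 58.8, far above counting error alone. Intervals that exclude 1 are therefore not particular to the cell cycle genes.

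**Figure D4:**
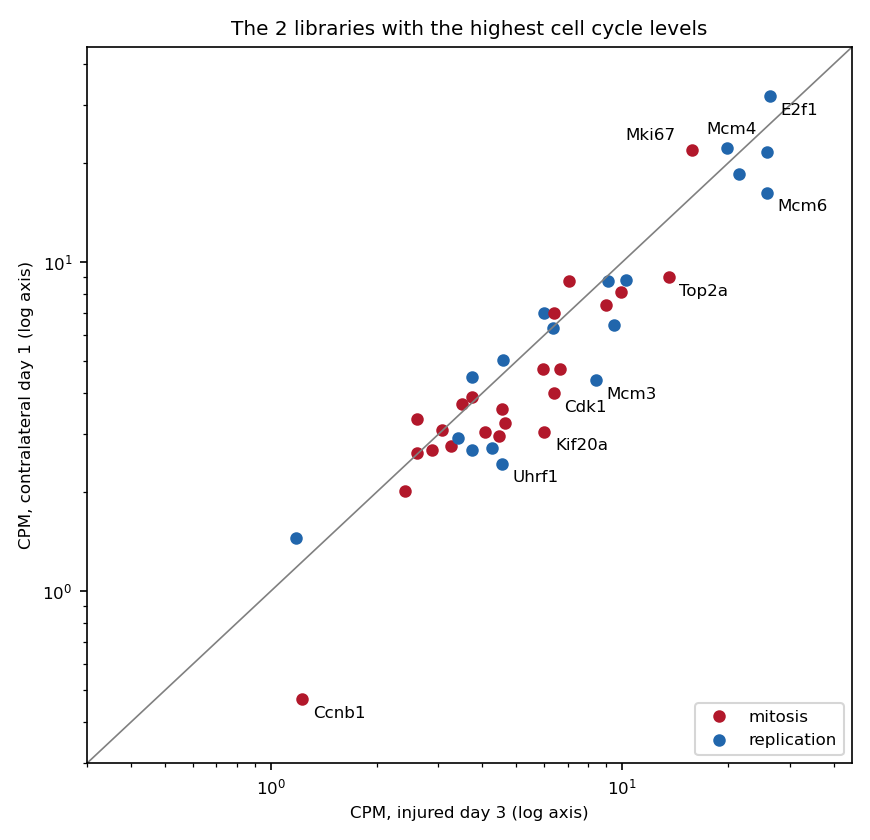
CPM of each gene in the contralateral library of day 1 (log axis, vertical) against the injured library of day 3 (log axis, horizontal), 1 point a gene (red mitosis, blue replication), 1 library an axis, line at equal levels. Mki67 and E2f1 lie above the line with intervals that exclude 1, and 14 genes lie below it with intervals that exclude 1.

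At day 7 the ratios were nearer to 1. The interval of the ratio lay above 1 for 19 genes, 13 of mitosis and 6 of replication, below 1 for E2f1, and held 1 for 21. Between the sides of day 7 the chi-square per gene was 40.6 over 16075 genes of all kinds, far above counting error alone. The share of all genes with an interval that excludes 1 was not worked out. The median ratio was 1.53 over the mitosis and 1.19 over the replication genes. Of 33 genes with 50 or more reads, 4 were 2-fold or more higher, against 3.07% of all such genes, and 0 were 2-fold lower, against 0.777%. These 4 were Cenpf at a log2 ratio of 1.28, Ube2c at 1.22, Cdc20, the activator of the anaphase-promoting complex, at 1.13, and Top2a at 1.10. Cenpf was at 3.36 CPM on the injured and 1.32 CPM on the contralateral side of day 7, 2.88 and 0.608 CPM at day 3, 0.439 and 2.68 CPM at day 1, and 1.88 and 0.785 CPM without injury. The 4 lowest were E2f1 and Gins2 at -0.34 each, Tk1, thymidine kinase, at -0.33 and Cdc45, a helicase cofactor, at -0.26. Log2 ratios were above 0 for 28 of the 33 genes, against 6639 of 13384 such genes.

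The left and right libraries of the pool labelled no injury also differed. The ratio of left over right had a median of 1.59 over the mitosis genes and 1.00 over the replication genes, with an interval above 1 for 9 of the 23 mitosis genes and 1 of the 18 replication genes, and below 1 for 0. Cenpa, the histone variant of centromeres, was 3.19-fold higher on the left (1.87 to 5.67) and Mki67 2.06-fold (1.61 to 2.64), and these were the 2 of 27 genes with 50 or more reads that passed 2-fold, against 0.402% of all such genes, with 0 of them 2-fold lower, against 0.493%. Rrm2 at a log2 ratio of 0.80 and Cenpe at 0.78 came next, and Mcm3 at -0.38, Tk1 at -0.28, Aurka at -0.24 and Mcm2 at -0.23 were the 4 lowest. Log2 ratios were above 0 for 17 of the 27 genes, against 6377 of 13192 such genes. Between the left and right libraries the chi-square per gene was 6.46 over 15796 genes of all kinds, above counting error alone. The share of all genes with an interval that excludes 1 was not worked out. The ligated nerve was always the left one. The neutrophil precursor markers were also higher on the left, at 107 CPM against 35.2 CPM on the right, and their part in the difference was not tested.

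Over all pools, the injury effect was tested on 16675 genes with edgeR's quasi-likelihood test, with each pool as a block and Benjamini-Hochberg adjustment at 0.05. It called 0 of the 41 genes higher and 1 lower, while 9.9% of all genes tested were called higher and 7.75% lower. At an unadjusted p under 0.05, 2 of the 41 genes were higher (Tpx2 and Pcna) and 1 was lower, against 3070 and 2652 of the 16675 genes tested. DESeq2 called 0 of the 41 genes in either direction, but its share over all genes is not given here to set beside that count. The median fitted log2 difference of the 41 genes was 0.17, against 0.02 for all genes. Day 1 and day 3 ratios had opposite signs for most genes, and standard errors were large: the log2 difference was 0.01 ± 1.26 (SE, 3 injured pools) for Mki67, 0.46 ± 1.31 for Top2a, 0.14 ± 1.04 for Cdk1, 0.20 ± 0.74 for Ccnb1, 0.23 ± 1.17 for Ccna2, 0.16 ± 0.76 for Plk1, 0.22 ± 0.38 for Mcm5 and 0.21 ± 1.05 for Rrm2. None of these 8 passed the test, with adjusted p from 0.733 to 0.997 in edgeR's quasi-likelihood test. The CPM ranges of the 3 injured and 3 contralateral libraries overlapped for 39 genes.

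E2f1 and Pcna were the 2 genes whose ranges did not overlap. E2f1, a transcription factor of replication genes (chromosome 2, 154559407 to 154569892), had 28.6, 26.3 and 26.5 CPM in the injured and 31.8, 30.4 and 33.5 CPM in the contralateral libraries of days 1, 3 and 7, with 30.7 and 30.4 CPM without injury. Each of its injured levels lay below each of its contralateral levels, as for 15.4% of all genes tested. The fitted fall of E2f1 was 0.24 on the log2 scale (SE 0.07, edgeR quasi-likelihood adjusted p = 0.0434). The call was kept in 4 of 10 alternative fits, with adjusted p from 0.0163 to 0.67. Pcna had 18.7, 21.4 and 19.3 CPM in the injured and 18.6, 16.8 and 16.2 CPM in the contralateral libraries of days 1, 3 and 7, with 17.0 CPM in each library without injury. Each of its injured levels lay above each of its contralateral levels, as for 14.6% of all genes tested. The fitted rise of Pcna, 0.20 ± 0.08 on the log2 scale, did not pass the test (edgeR quasi-likelihood adjusted p = 0.121).

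The fitted direction depended on which pool was left out. Without the day 3 pool the same test called 0 of the 41 genes in either direction, against 3.96% of genes higher and 2.03% lower. The median log2 difference was -0.26, with 7 genes above 0. At an unadjusted p under 0.05 edgeR put 0 of them higher and 2 lower, against 2259 and 1709 of 16434 genes. Without the day 7 pool the test called 0 of 40, against 2.9% and 0.952%, with a median of -0.02. At an unadjusted p under 0.05 there was 1 gene each way in edgeR, against 2210 higher and 1647 lower of 16386 genes. Mki67, Top2a, Cdk1, Ccna2, Plk1 and Rrm2 were negative in both of these fits, for example Mki67 at -1.15 and -0.41.

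Without the day 1 pool the test called 20 genes higher, 12 of mitosis and 8 of replication, and E2f1 lower, against 14.5% and 13.9% of the 16480 genes tested. The median log2 difference of the 41 genes was then 0.81, against 0.02 for all genes. Mcm6 rose by 0.83 ± 0.11 (SE, over 2 pools, with an adjusted p = 0.000651 in edgeR's quasi-likelihood test) and Tpx2, a spindle assembly factor, by 0.81 ± 0.15 (adjusted p = 0.0038). The largest rises among the 20 were in Uhrf1 (1.95 ± 0.54), Cenpf (1.71 ± 0.41), Ccnb2 (1.62 ± 0.37), Ube2c (1.53 ± 0.32) and Rrm2 (1.49 ± 0.33). Cdk1, Plk1, Mcm5 and Pcna also rose. Mki67 at 1.37 ± 0.65 and Top2a at 1.79 ± 0.45 did not pass, with edgeR adjusted p of 0.253 and 0.0533, and Ccna2 at 1.54 ± 0.50 and Ccnb1 at 0.94 ± 0.54 did not either. Leaving out only the contralateral library of day 1, with no pool block, gave 2 genes called higher and 0 lower, against 7.71% and 6.56% of genes, and a median of 0.61.

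**Figure D5:**
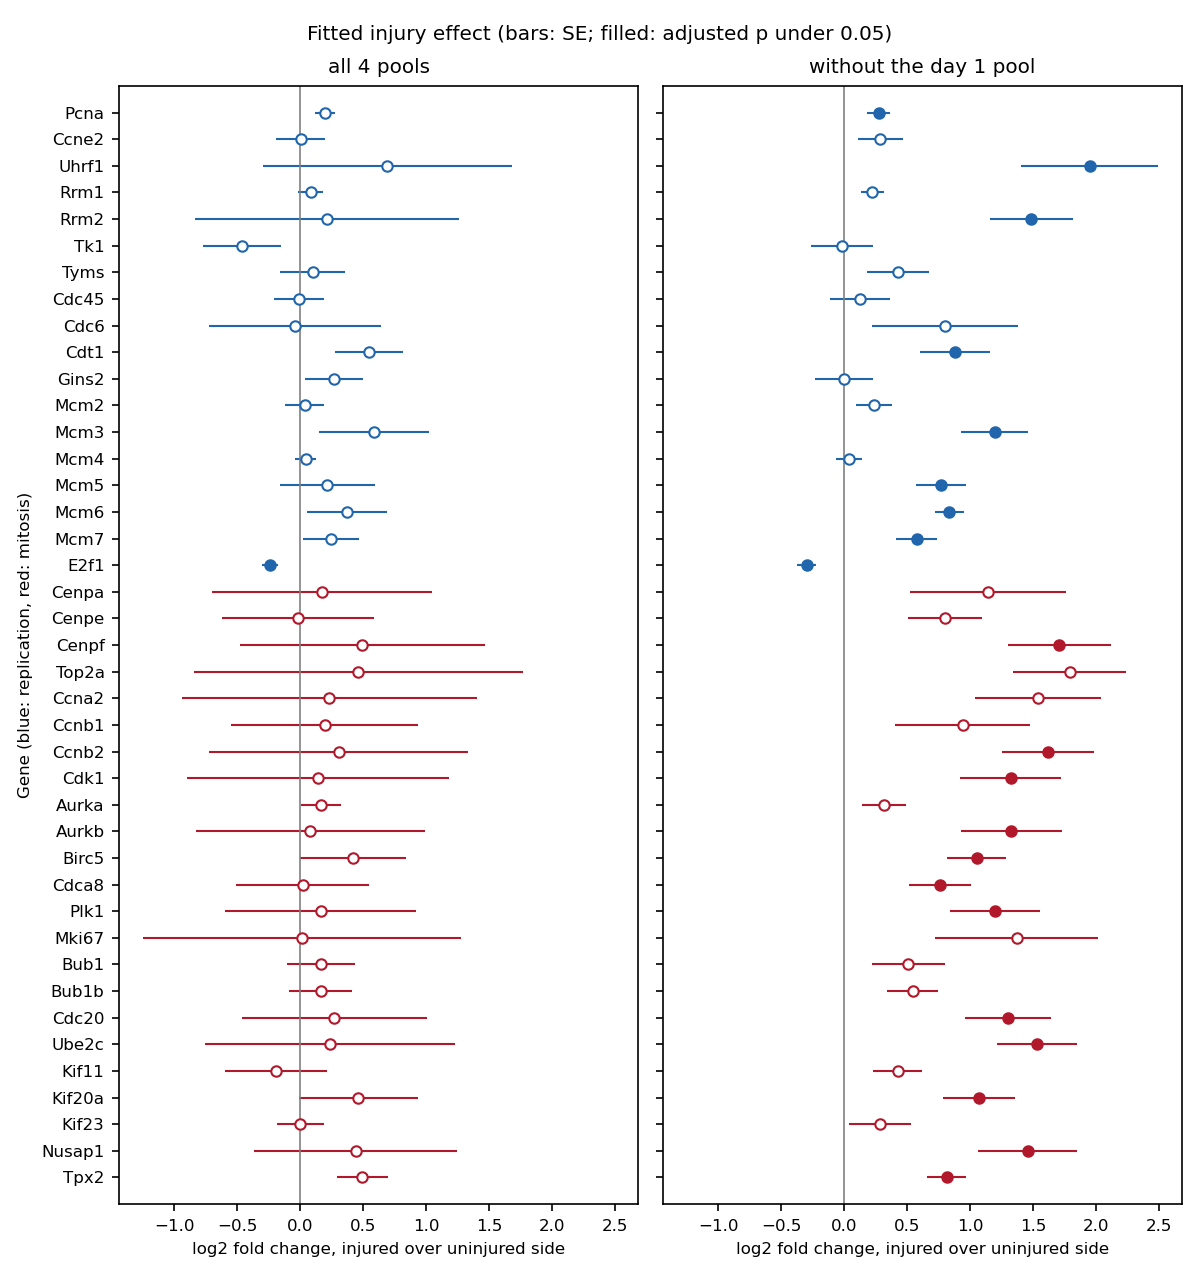
Fitted log2 difference of injured minus uninjured with its SE as bars for each gene, over all pools and without the day 1 pool (edgeR quasi-likelihood fit with the pool as block); filled points passed adjusted p under 0.05, blue are replication and red mitosis genes. Over all pools 0 genes were called higher and E2f1 was called lower; without the day 1 pool 20 were called higher.

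Set against the pool labelled no injury, summed to 1 sample, neither side's 41 genes held a call. For injured minus no injury 0 were called, with a median log2 difference of 0.57, while 1.73% of 17245 genes were higher and 1.08% lower. For contralateral minus no injury 0 were called, with a median of 0.33, against 0.0812% and 0.0754% of genes. In both comparisons edgeR's test gave 0 of the 41 genes an unadjusted p under 0.05. Of all 17245 genes, 1917 were higher and 1770 lower at that limit for injured minus no injury. For contralateral minus no injury 426 were higher and 497 lower. DESeq2 called 0 of the 41, and its calls over all genes are given in the last section. Both comparisons share the 1 control sample, whose Xist and Kdm5d reads go against the labelled sex, unlike those of the operated pools. A difference of sex and one of operation therefore cannot be told apart in any comparison with it. Library by library, the injured side of day 3 lay above both no injury libraries for 40 of 41 genes and the contralateral side of day 1 for 39, against 45.9% and 39.3% of all genes tested. The injured side of day 7 lay above both for 32 genes and the contralateral side of day 7 for 20, against 43.4% and 38.7%. The injured side of day 1 lay below both for 26 genes and the contralateral side of day 3 for 17, against 46.3% and 44.1%. E2f1 was the gene not above both on the injured side of day 3. Without the day 1 libraries 17 genes were called higher and 0 lower on the injured side, against 12.1% and 13% of 17037 genes. Without the day 3 or the day 7 libraries 0 were called. The share of all genes called in each of those fits is not given here, so this 0 is not a result about the members. The range of calls over all genes with 1 day left out is given in the last section. Without the contralateral library of day 1 alone, the contralateral median was 0.02 with 0 called, against 0.0702% of genes higher and 0.0234% lower.

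Other genes of the cell cycle were taken from 4 lists. In the test over all pools 9.9% of all genes were higher and 7.75% lower, as above. Of 38 further replication genes 0 were called higher and 1 lower: Dut, the dUTPase that keeps uracil out of DNA, fell by 0.53 on the log2 scale (SE 0.10; edgeR quasi-likelihood adjusted p = 0.0147), a call kept in 8 of 10 alternative fits. It had 16.5, 15.0 and 12.2 CPM in the injured libraries of days 1, 3 and 7 and 23.4, 18.05 and 21.5 CPM on the contralateral side, with 21.2 and 21.5 CPM without injury. Gins3 (-0.29), Hells (-0.42) and Timeless (0.33) did not pass. The list's median was -0.04. At an unadjusted p under 0.05, 1 of the 38 was higher and 4 were lower in edgeR, against 3070 and 2652 of 16675 genes. Without the day 1 pool 3 of 36 were called higher and 1 lower, against 14.5% and 13.9% of all genes, with a median of 0.02.

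Of 63 further mitosis genes 61 were tested, 1 was called higher and 1 lower, with a median of 0.17. Kif22, a chromosome-arm kinesin, had 10.3 and 6.53 CPM on the injured and the contralateral side of day 1, 18.2 and 6.78 CPM at day 3, 17.7 and 6.68 CPM at day 7, and 3.18 and 2.86 CPM without injury. It was higher on the injured side at day 1 as well, unlike the 21 listed mitosis genes with 50 or more reads there, and rose by 1.17 ± 0.15 (edgeR quasi-likelihood adjusted p = 0.00414). Sgo2a, a protector of centromere cohesion, fell by 0.48 (SE 0.12, adjusted p = 0.0369). Kif22 kept its call in 9 of 10 alternative fits and Sgo2a in 5. Prc1, which bundles the midzone microtubules, had 30.6 against 9.45 CPM at day 3 and 36.1 against 9.46 CPM at day 7, but 8.93 against 7.42 CPM at day 1. At 1.35 ± 0.35 it did not pass (edgeR quasi-likelihood adjusted p = 0.0593), nor did Foxm1, a transcription factor of G2 genes, at 0.68 ± 0.22 (adjusted p = 0.0641). Without the day 1 pool 21 of 60 were called higher and 2 lower, against 14.5% and 13.9% of all genes, with a median of 0.72, and without the day 3 pool the median was -0.30.

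Of 15 G1 cyclins, kinases and their regulators, 2 were called higher (the share over all genes was 9.9%) and 1 lower (7.75%). Myc, a growth-promoting transcription factor, had 23.0, 23.5 and 19.8 CPM in the injured and 16.3, 15.1 and 11.8 CPM in the contralateral libraries of days 1, 3 and 7, with 11.6 and 12.6 CPM without injury, so the 2 sides did not overlap. It rose by 0.62 ± 0.08 (edgeR quasi-likelihood adjusted p = 0.00405). Cdk4, the kinase of the D cyclins, rose by 0.41 ± 0.09 (adjusted p = 0.0208), Tfdp2, an E2F dimer partner, fell by 0.34 (SE 0.07, adjusted p = 0.016), and Ccnd2 at 0.61 ± 0.19 did not pass (adjusted p = 0.0749). In 10 alternative fits Myc kept its call in 9, Tfdp2 in 8 and Cdk4 in 6.

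Of 16 inhibitors of the cycle, 4 were called higher and 0 lower, against 9.9% and 7.75% of all genes, with a median of 0.30. Cdkn1a, the p21 inhibitor of cyclin-dependent kinases, had 182, 297 and 295 CPM in the injured and 117, 121 and 107 CPM in the contralateral libraries of days 1, 3 and 7, and 58.0 and 64.9 CPM without injury. All 3 injured libraries were above all others, and it rose by 1.13 ± 0.15 (edgeR quasi-likelihood adjusted p = 0.00887). Btg1, an antiproliferative factor, rose by 0.57 ± 0.08, Cdkn3, a phosphatase of Cdk2 and Cdk1, by 0.57 ± 0.13, and Trp53, the p53 tumour suppressor, by 0.26 ± 0.07, each with the injured side higher in 3 of 3 pools. Adjusted p in edgeR's test was 0.00516, 0.024 and 0.0372. In 10 alternative fits Btg1 kept its call in 9, Cdkn1a in 8, Cdkn3 in 5 and Trp53 in 4, with adjusted p for Trp53 from 0.0143 to 0.552. Whether the lists differ from one another was not tested.

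Some of the 41 genes share sequence with others. Exon bases overlap another gene for 13, most of all Gins2, then Kif20a (29.3% with Cdc23), Ube2c (22.8% with Tnnc2, a muscle troponin), Ccne2 (17.4% with Ints8) and Ccna2 (12.5% with Exosc9). These 5 overlaps are on opposite strands, and 2 of the 13 genes, Top2a and Mcm7, overlap small RNA genes on their own strand that had 0 reads. The 8 skeletal muscle markers were highest in the right no injury library, at 1105 CPM against 16.0 to 156 CPM elsewhere, while Ube2c had 0.600 CPM there, below every library but the injured side of day 1. Ccnb1, Ccnb2, Pcna and Tyms have pseudogenes named after them, with at most 17 reads in the 8 libraries together.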

How the data were processed

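RNA of 8 libraries was analysed. The authors deposited 1 table of raw counts, with 53801 Ensembl genes as rows. The submitters' processing notes name cutadapt 1.16, STAR 2.5.4a, featureCounts 1.6.3, DESeq2 and the build GRCm38 without roles. The sources used here do not give the strand setting, the handling of multi-mapping reads or the annotation release. Symbols matched 53620 gene IDs, and positions came from GENCODE M21 for 53706.

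The members and lists were chosen with earlier results of these data known. CPM used library totals. edgeR 4.0.16 (R 4.3.3; TMM, filterByExpr minimum count 10, robust quasi-likelihood test, adjusted p under 0.05) fitted the injury effect over 8 libraries with the pool as a block, since each mouse was its own control per the design text. Deviations of the 2 sides correlated by 0.246, -0.033 and 0.355 in the pools of days 1, 3 and 7. Levels against no injury were fitted without a block, with the left and right no injury libraries summed to 1 sample. Each pool is 1 set of mice at 1 time, so the p-values hold the spread over pools and times together. Side ratios have no test. No library pair agreed within sampling noise (lowest chi-square per gene 6.46, left against right without injury).

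Named genes followed a rule: all 41 by CPM or range, fitted values for Mki67, Top2a, Cdk1, Ccnb1, Ccna2, Plk1, Mcm5, Pcna, Rrm2, E2f1 and any other called member, the 4 highest and 4 lowest side ratios per pool, and up to 4 genes per pathway list with the lowest p. Other members were named after their values were seen. On simulated counts (16508 genes) the injury effect test recovered 62% of genes changed 1.5-fold, 98% changed 2-fold and 100% changed 4-fold. There, 8 of 188 calls had no planted change. These shares hold for the simulated counts and were not worked out for the 41 genes. Among the 41, the SE of the fitted log2 difference reached 1.31 (Top2a), and Ccnb1 had at most 26 reads in a library. The shares therefore cannot be carried over to genes with so large an SE or so few reads. Alternatives were RLE factors, no filter, DESeq2 1.42.0, no block, side as a term, leaving out pools or libraries, prior count 0.5 and 20 reads. The lists for T and NK cells, B cell precursors, endothelial and mural cells, sensory neurons, and chondrocytes and osteoblasts were also summed: 1.08 to 4.56, 143 to 187, 256 to 391, 23430 to 27770 and 14.7 to 25.9 CPM over the 8 libraries.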

Additional observations from a re-analysis of the deposited data

Results flagged for a closer look

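The median log2 side ratio of the cell cycle genes with 50 or more reads was -0.89 at day 1 and 0.99 at day 3, on opposite sides of 0. In all, 13 genes were 2-fold or more lower on the injured side at day 1 and 2-fold or more higher at day 3: Mki67, Top2a, Cdk1, Ccnb2, Ccna2, Aurkb, Cdc20, Cenpa, Cenpf, Nusap1, Ube2c, Rrm2 and Uhrf1. There was 1 library a side at each day, so the difference between the days was not tested.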

How the results depend on the processing

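The direction of the 41 genes' median rests on the pools: leaving out 1 pool at a time moved the median log2 injury effect between -0.26 and 0.81, the count of members called higher between 0 and 20 and lower between 0 and 1, and the calls over all genes between 475 and 2382 higher and 156 and 2287 lower. The lowest medians, -0.26 and -0.02, came without the day 3 and the day 7 pool. Leaving out 1 pool gave ranges of -1.15 to 1.37 for Mki67, -0.68 to 1.79 for Top2a, -0.96 to 1.32 for Cdk1, -0.87 to 0.94 for Ccnb1, -0.98 to 1.54 for Ccna2, -0.69 to 1.20 for Plk1, -0.24 to 0.77 for Mcm5 and -0.78 to 1.49 for Rrm2. Without the day 7 pool the values were -0.41 for Mki67, -0.09 for Top2a, -0.23 for Cdk1, -0.07 for Ccna2, -0.16 for Plk1 and -0.34 for Rrm2. Side as a further term left 9 genes called higher and 0 lower, 0 members lower and a members' median of -0.14, with Mki67 at -0.9995, Top2a at -0.28, Cdk1 at -0.72, Ccnb1 at -1.14, Ccna2 at -0.033, Plk1 at -0.14, Mcm5 at -0.086 and Rrm2 at -0.62. The injured side was always the left, so the side term of this fit rests on the left and right no injury libraries alone. Its injury effect is thus taken net of their difference, and the fit has fewer degrees of freedom. What lies behind that left and right difference was not tested.

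Without the replicate block that pairs the 2 sides of a pool, Mki67 stood at -0.016 and E2f1 kept its call at an adjusted p of 0.0495 (edgeR). Without the block and the contralateral library of day 1, 2 members were higher, 0 lower, and the median was 0.61. DESeq2 called 0 members lower and put Ccnb1 at -0.15. For injured minus no injury, calls over all genes were 503 higher and 487 lower with no filter, 1538 and 1370 with left and right as 2 samples, 913 and 503 with DESeq2, 133 and 90 without the contralateral library of day 1 alone (added after seeing the data), and 12 to 2056 and 1 to 2223 with 1 day left out, where members called higher ran from 0 to 17. For contralateral minus no injury, calls were 22 and 32 with no filter, 28 higher with 2 samples, 41 and 31 with DESeq2, 4 lower without the contralateral library of day 1 alone, and 10 to 97 and 1 to 100 with 1 day left out. With 20 reads as the minimum, 4 members were 2-fold higher on the left of the no injury pool. Over all alternatives, 118 summary values stayed close to the main value by a set limit, 45 moved past it and 3 reversed. Of the gene values, 280 kept their direction and, where fitted, their side of the threshold. Another 24 reversed, 35 lost their call and 16 gained one. At these depths genes such as Ccnb1 are too thinly read for a ratio near 1 to be resolved.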
